A study of Mus musculus with 13 samples.

Results

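The core pluripotency genes described here were 9 listed genes, Pou5f1, Sox2, Sall4, Utf1, Dppa2, Dppa4, Lin28a, Tdh and Fbxo15, taken by symbol and Ensembl identifier from the gene tables of a study of mouse embryonic stem (ES) cells. All 9 had a row among the 49671 genes of a table of 4 single libraries, and 8 had a row among the 26797 genes of 6 replicate libraries; Sox2 in the replicate libraries was not analysed here. Embryonic stem cells stay undifferentiated through a small circuit of transcription factors, in which OCT4 (the product of Pou5f1) and SOX2 bind DNA side by side at composite motifs and activate their own genes and many others. Around that circuit stand chromatin proteins, an RNA-binding protein and metabolic and ubiquitin pathway proteins whose expression is largely restricted to pluripotent cells and the early embryo, which makes the group a marker of that state. DNA methylation, copied at replication by the methyltransferase DNMT1, silences several such genes during differentiation, while in ES cells the same genes are active.

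Polyadenylated RNA was sequenced from 3 libraries of WT cells of the AinV15 line and 3 of cells homozygous for a null allele of Dnmt1, the D1-null strain (C allele), both untreated. In AinV15 a transgene placed by recombination at a prepared site is switched on by doxycycline. In 1 library each, AinV15 cells expressed 4 sgRNAs against the IAP retrotransposon together with dCas9-OGA, a catalytically dead Cas9 fused to a bacterial enzyme that removes O-GlcNAc from proteins, or with dCas9-OGA-D242A, its inactive form, after 48 h of 1 µg/mL doxycycline. A single library of WT and a single library of Dnmt1−/− cells, which are not matched to any replicate, completed the table of single libraries. All cells grew on gelatin in serum with leukemia inhibitory factor. The Dnmt1−/− cells are a separately derived line, so genotype and line cannot be told apart. The labels do not say whether the replicates came from separate cultures, so p-values measure the spread between these libraries, which may be technical.

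The replicate files hold a normalized signal on a scale close to that of cpm, from which 26846275 to 37112247 whole reads per library were recovered. The single libraries hold 25097983 gene counts in WT, 18693531 in Dnmt1−/−, 24828078 in dCas9-OGA-D242A and 24955180 in dCas9-OGA, given below as TMM-scaled CPM, the count of a gene relative to the library total (cpm). The tables were normalized separately, and levels are compared only within each. Dnmt1, the targeted gene, was measured at 308, 352 and 347 in the WT replicates and at 73.6, 75.4 and 77.6 in the Dnmt1−/− replicates. In the single libraries Dnmt1 stood at 460.2 cpm in WT, 61.9 in Dnmt1−/−, 376 in dCas9-OGA-D242A and 549 in dCas9-OGA. Every library labelled Dnmt1−/− was therefore below every library labelled otherwise in its own table, with RNA of the gene still present.

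Loss of DNMT1 was compared with WT in the replicate libraries to ask whether RNA of the core genes follows the methyltransferase. All 8 measured members passed the filter on low values and differed at an adjusted p under 0.05, 3 higher and 5 lower in Dnmt1−/−. Of all 17297 genes tested, 35.8% were called higher and 35.4% lower, so that being called was common among genes in general. The groups did not overlap for 8 of 8 members and for 73.3% of all genes. The median log2 fold change of the members was −0.16, against 0.0069 for all tested genes. As genes moved in both directions, these medians do not give the size of the changes. Without regard to sign, the median over all tested genes was 0.36, which among the members only Tdh and Dppa2 passed. No member moved 2-fold, and the share of all genes that did is not given here. In these bulk libraries, fewer cells of a type and less RNA per cell cannot be told apart. Values of single members follow, on the scale of normalized signal, with fold changes on log2(signal + 0.5).

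Among the transcription factors, the signal of Pou5f1 (ENSMUSG00000024406, chr17:35506018-35510772, plus strand, GRCm38), which encodes the POU-domain factor OCT4, in the WT replicates was 303, 318 and 298, and in the Dnmt1−/− replicates 283, 271 and 263. All 3 WT libraries were above all 3 Dnmt1−/− libraries. The means were 306 ± 10.5 in WT and 272 ± 9.91 in Dnmt1−/− (SD, n = 3), so Pou5f1 RNA fell by 11.2% (log2 fold change −0.17, SE 0.049, limma adjusted p = 0.00359). Sall4 (ENSMUSG00000027547, chr2:168748332-168767943, minus strand), a zinc finger factor of the spalt family that acts with OCT4 and represses differentiation genes, also had the higher signal in WT. Its signal in the WT replicates was 367, 411 and 401, and in the Dnmt1−/− replicates 332, 333 and 356, again without overlap. It fell by 13.3%, from a mean of 393 ± 22.8 to 340.3 ± 13.5 (log2 fold change −0.21, SE 0.053, limma adjusted p = 0.00131). Both changes were modest on the scale of this comparison, as 25.7% of all tested genes had a smaller absolute log2 fold change than Pou5f1 and 30.9% a smaller one than Sall4.

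The 3 chromatin-associated members moved the other way. Utf1 (ENSMUSG00000047751, chr7:139943789-139945112, plus strand), a chromatin protein of undifferentiated cells, is a classical target of OCT4 and SOX2. Its signal in the WT replicates was 197, 215 and 205, and in the Dnmt1−/− replicates 237, 229.5 and 249, with every Dnmt1−/− library above every WT library. The mean rose by 15.9% (log2 fold change 0.21, SE 0.051, limma adjusted p = 6.28e-04). Dppa2 (ENSMUSG00000072419, chr16:48303908-48319723, plus strand) and Dppa4 (ENSMUSG00000058550, chr16:48283733-48294237, plus strand) encode SAP-domain proteins that bind each other and act at CpG-rich promoters and at genes of early embryonic cleavage stages. The Dppa2 signal in the WT replicates was 112, 109.6 and 128, and in the Dnmt1−/− replicates 148, 147 and 158. For Dppa4 the signal in the WT replicates was 120.3, 118 and 124, and in the Dnmt1−/− replicates 137, 141 and 134. Neither gene had overlapping groups. Dppa2 rose by 29.5% (log2 fold change 0.37, SE 0.056, limma adjusted p = 2.18e-06), the largest rise among the members. The rise of Dppa4 was 13.9% (log2 fold change 0.19, SE 0.048, limma adjusted p = 0.00132). The genes lie in the same orientation on chromosome 16, with 9.67 kb between the end of Dppa4 and the start of Dppa2.

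Lin28a (ENSMUSG00000050966, chr4:134003330-134018841, minus strand) encodes an RNA-binding protein that blocks maturation of let-7 microRNAs and binds many mRNAs. Its signal in the WT replicates was 156, 155 and 164, and in the Dnmt1−/− replicates 147, 139 and 143. Again no WT library fell within the Dnmt1−/− range, but the groups lay close together. The mean fell by 9.67% (log2 fold change −0.15, SE 0.048, limma adjusted p = 0.00960), the smallest change among the members. This call depended on individual libraries: without WT replicate 3 the log2 fold change was −0.12 (limma adjusted p = 0.0516), without Dnmt1−/− replicate 2 it was also −0.12 (limma adjusted p = 0.0625), and over all alternatives the adjusted p ranged from 0.00401 to 0.0625.

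The largest change was that of Tdh (ENSMUSG00000021953, chr14:63492347-63509092, minus strand), threonine dehydrogenase, the mitochondrial enzyme that opens threonine breakdown to glycine and acetyl-CoA and on which mouse ES cells depend for one-carbon units. Its signal in the WT replicates was 72.8, 73.3 and 72.2, and in the Dnmt1−/− replicates 46.9, 41.6 and 45.3. The WT libraries were nearly identical and all lay far above the Dnmt1−/− libraries. Tdh fell by 38.7%, from 72.8 ± 0.567 to 44.6 ± 2.67 (SD, n = 3; log2 fold change −0.70, SE 0.055, limma adjusted p = 3.95e-11), and 75.7% of tested genes had a smaller absolute change. Fbxo15 (ENSMUSG00000034391, chr18:84934782-84981473, plus strand), an F-box protein that serves as a substrate adaptor of SCF ubiquitin ligases and whose locus has been used as a reporter of reprogramming, followed the same direction. Its signal in the WT replicates was 636, 583 and 631, and in the Dnmt1−/− replicates 520.5, 495 and 445. All WT libraries were above all Dnmt1−/− libraries, and the mean fell from 617 to 487 (log2 fold change −0.34, SE 0.058, limma adjusted p = 1.31e-05).

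**Figure D1:**
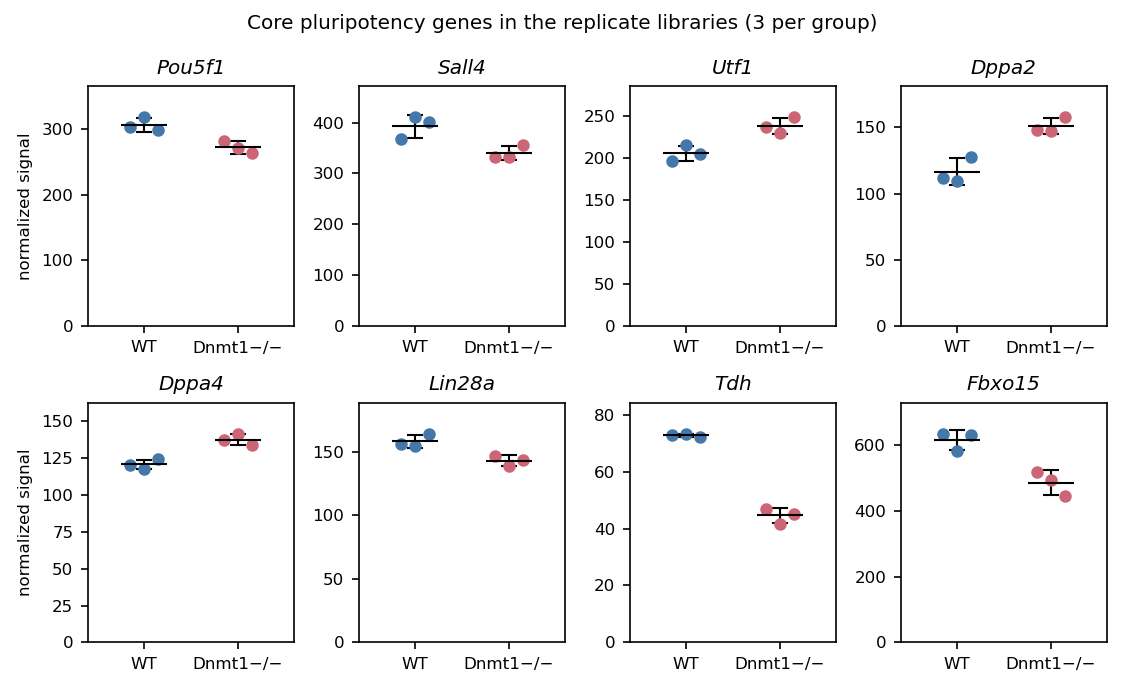
Normalized signal (vertical axes, starting at 0) of 8 core pluripotency genes in 3 WT and 3 Dnmt1−/− replicate libraries; points are libraries, and the horizontal line and bar are the mean and SD. Utf1, Dppa2 and Dppa4 sit higher in Dnmt1−/− and the other 5 genes lower, without overlap of the groups in any panel.

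Per kilobase of exon, the members spanned a wide range of levels, all within the upper part of the transcriptome. In WT, Fbxo15 (184 ± 8.70) and Utf1 (168 ± 7.70) led and overlapped between libraries, followed by Pou5f1 (136 ± 4.68). Below them Dppa4 (72.6 ± 1.90) and Sall4 (70.9 ± 4.11) overlapped, and Dppa2 (47.6 ± 4.06), Lin28a (39.6 ± 1.29) and Tdh (27.8 ± 0.217) each stood apart from its neighbours. In signal per kb, even Tdh was above 79.2% in Dnmt1−/−. In Dnmt1−/− the order became Utf1, Fbxo15, Pou5f1, Dppa4, Dppa2, Sall4, Lin28a and Tdh, in which only the neighbours Dppa2 (61.7 ± 2.37) and Sall4 (61.5 ± 2.43) overlapped.

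Genes of the same pathways were read from the same limma fit as counts, and several genes belong to more than 1 list. Since 71.2% of all tested genes were called in either direction, a list with about that share called does not stand apart, and the counts describe the lists only. Of 5 tested targets with a known OCT-SOX element outside the core list, 2 were lower in Dnmt1−/− and the other 3 did not pass the test. Lefty1, an inhibitor of Nodal signalling, fell from 166 ± 2.46 to 22.2 ± 2.82 (log2 fold change −2.88, limma adjusted p = 2.47e-21), and Spp1, osteopontin, from 1126 ± 67.4 to 543 ± 18.1 (log2 fold change −1.05, limma adjusted p = 2.90e-14). Both had the opposite direction in the single libraries, where Lefty1 stood at 47.9 cpm in WT and 229 in Dnmt1−/− and Spp1 at 60.2 and 262. Of 15 tested genes of naive pluripotency, 2 were higher and 7 lower. Dppa3, which protects the maternal genome of the zygote from demethylation, rose from 1.51 ± 0.204 to 16.7 ± 2.24 (log2 fold change 3.10, limma adjusted p = 2.93e-17). Nr0b1, a nuclear receptor that binds OCT4, fell from 192 ± 3.89 to 89.8 ± 4.67. Prdm14, a repressor of de novo methyltransferase genes, fell from 43.2 ± 1.80 to 27.0 ± 0.748. Esrrb, an orphan nuclear receptor, fell from 799 ± 29.6 to 585 ± 10.2. Among 22 tested other genes enriched in ES cells, 11 were higher and 6 lower. Dnmt3l, the cofactor of de novo methyltransferases, rose from 247 ± 9.77 to 755 ± 16.4 (log2 fold change 1.61, limma adjusted p = 8.41e-19). The forkhead factor gene Foxd3 rose from 31.6 ± 0.180 to 61.3 ± 2.56. The median log2 fold changes of these lists were −0.041, −0.11 and 0.17 in that order, beside 0.0069 for all genes. In the single libraries, 5 of 9 called naive pluripotency genes and 10 of 17 called other ES cell genes had the opposite direction. They included Nr0b1, Prdm14, Dnmt3l and Foxd3.

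Relatives of the 3 transcription factors were read in the same way. Of 16 tested genes of the POU, SOX and SALL families, 2 were higher and 10 lower, with a median of −0.47. Sall1, a relative of Sall4, fell from 283 ± 13.1 to 91.0 ± 1.46 (log2 fold change −1.63, limma adjusted p = 4.51e-19), and Sall3 from 36.6 ± 2.50 to 9.35 ± 0.773. In the single libraries Sall1 was slightly higher in Dnmt1−/−, at 182 cpm beside 162 in WT. Pou2f2, an octamer factor of lymphoid cells, fell from 18.4 ± 1.67 to 4.26 ± 0.580, whereas Pou2f3, a factor of tuft cells and epidermis, rose from 5.65 ± 0.260 to 13.6 ± 0.744. Of 14 tested genes around LIN28A and let-7, 7 were higher and 3 lower, with a median of 0.15. Lin28b, the paralog of Lin28a, rose from 10.2 ± 0.418 to 18.1 ± 0.750 (log2 fold change 0.79, limma adjusted p = 2.13e-09). Of this list, Hmga2 fell from 86.3 ± 7.12 to 43.3 ± 1.28, and Mycn from 157 ± 1.48 to 90.9 ± 3.30. Ago2, the slicing Argonaute, also fell (log2 fold change −0.66, limma adjusted p = 1.03e-10). Igf2bp1 (log2 fold change 0.64, limma adjusted p = 5.15e-11) and Igf2bp2 (0.63, limma adjusted p = 1.59e-10) rose. In the single libraries Igf2bp1 had the opposite direction (log2 ratio −0.68).

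Of 8 tested genes of threonine and glycine breakdown, 4 were higher and 2 lower, with a median of 0.28. Gldc, the decarboxylase of the glycine cleavage system, rose (log2 fold change 1.01, limma adjusted p = 9.52e-15). Gcsh, the lipoate carrier of the same system, rose from 115 ± 3.27 to 160.2 ± 3.44. Shmt1, a serine hydroxymethyltransferase, rose from 119.6 ± 7.28 to 191 ± 6.14, and Mat2a, which makes S-adenosylmethionine, from 216 ± 12.9 to 382 ± 5.70. The 2 lower genes were Amt (log2 fold change −0.26, limma adjusted p = 8.03e-05) and Gcat (−0.15, limma adjusted p = 0.0148). Gcat had the opposite direction in the single libraries (log2 ratio 0.28). Of 3 tested partners of F-box proteins in SCF ligases, the scaffold gene Cul1 rose from 113 ± 3.40 to 130.1 ± 4.04 (log2 fold change 0.20, limma adjusted p = 6.50e-04) and Nedd8, whose product activates cullins, fell from 179 ± 6.07 to 160.2 ± 11.4 (log2 fold change −0.16, limma adjusted p = 0.00801). The median log2 fold change of the partners was −0.047.

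Markers of other cell states also differed between WT and Dnmt1−/− in the replicate libraries, some in the direction of the members that fell and some in that of the members that rose. Of all tested genes, 35.4% were called lower and 35.8% higher in Dnmt1−/−. Lower in Dnmt1−/− were genes of the 2-cell-like state, of fibroblasts and of neuroectoderm. The signal summed over 13 measured 2-cell-like genes, most abundant Zscan4f, was 676 to 698 in the WT replicates and 251 to 294 in the Dnmt1−/− replicates, and 11 of 13 were lower (median log2 fold change −1.24). Over 8 fibroblast genes, most abundant Col1a1, the sum was 1077 to 1546 in the WT replicates and 251 to 281 in the Dnmt1−/− replicates, and 8 of 8 were lower (median −2.40). Over 4 measured neuroectoderm genes, most abundant Nes, it was 97.9 to 114 in the WT replicates and 39.2 to 42.3 in the Dnmt1−/− replicates, and 3 of 3 tested were lower (median −0.80). Among these, Zscan4a fell from 99.3 ± 0.223 to 27.7 ± 3.47 and the matrix gene Col1a2 from 401 ± 73.7 to 71.0 ± 3.26. In the single libraries the neuroectoderm sum, there over 6 genes, was higher in Dnmt1−/−, at 269 cpm beside 208 in WT.

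Trophoblast and primitive endoderm genes were higher in Dnmt1−/− in the replicate libraries, but mostly not in the single libraries. Of the called genes with enough counts there, all 9 trophoblast genes and 6 of 7 primitive endoderm genes had the opposite direction. Over 10 trophoblast genes, most abundant Krt8, the sum was 131 to 134 in the WT replicates and 316 to 327 in the Dnmt1−/− replicates, and 9 of 9 tested were higher (median 1.08). Over 10 primitive endoderm genes, most abundant Sparc, it was 1664 to 1932 in the WT replicates and 2168 to 2268 in the Dnmt1−/− replicates, and 7 of 10 were higher (median 0.63). The trophoblast factor gene Hand1 rose from 0.700 ± 0.0842 to 9.28 ± 0.548, and the endoderm factor gene Sox17 from 4.93 ± 0.318 to 10.6 ± 0.446. Mixed directions were seen for 5 tested mesendoderm genes, of which 3 were higher and 1 was lower (median 0.61), with a sum (most abundant Kdr) of 20.2 to 20.4 in the WT replicates and 26.4 to 28.0 in the Dnmt1−/− replicates. Of 8 tested genes of formative and primed epiblast, 2 were higher and 4 lower (median −0.57), with a sum (most abundant Dnmt3b) of 424 to 455 in the WT replicates and 507 to 541 in the Dnmt1−/− replicates. The sum and the median of this list had opposite signs, as Dnmt3b rose from 127 ± 5.26 to 276 ± 11.3. No measured marker of these lists was at 0 in all 6 libraries. The part of these markers in the differences of the core genes was not tested.

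The single libraries gave a further comparison of Dnmt1−/− with WT that shares no library with the replicates, and the only values of Sox2. With 1 library per condition there is no replicate check and no p-value, and the 95% intervals cover counting error only; the Wilson interval widest for its value was that of Dppa2 in dCas9-OGA, 32.8 to 37.5 cpm around 35.1. Members were compared by the log2 ratio of cpm + 0.5, with 2-fold as the threshold. Among the 9 members, 1 was 2-fold higher and 0 were 2-fold lower in Dnmt1−/−, beside 10.5% and 6.89% of 12593 genes with at least 100 counts summed.

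The single libraries also differed in chromosome Y genes, which were examined after their values had been seen. Of 183 annotated protein-coding genes of chromosome Y, 6 had at least 100 counts summed over these libraries, Ddx3y, Eif2s3y, Kdm5d, Uba1y, Uty and Zfy1. Together they came to 9.12 cpm in WT, 161 in Dnmt1−/−, 146 in dCas9-OGA-D242A and 3.75 in dCas9-OGA. Ddx3y, an RNA helicase gene, stood at 2.22 cpm in WT, 55.6 in Dnmt1−/−, 53.6 in dCas9-OGA-D242A and 0.403 in dCas9-OGA. Each of the 6 genes was low in WT and dCas9-OGA and higher in the other 2 libraries, so the cells with the active and the inactive enzyme differed in chromosome Y expression as well as in the enzyme. In the replicates the 6 genes summed to a signal of 224, 196 and 214 in WT and 79.3, 77.8 and 70.8 in Dnmt1−/−. Each of the 6 fell in that comparison, the opposite direction to the single libraries (for Ddx3y, log2 fold change −1.61, limma adjusted p = 2.38e-17). With 1 library per condition, effects of the enzyme or genotype on the core genes cannot be told apart from such differences between the cells.

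Pou5f1 stood at 1319 cpm in WT, 891 in Dnmt1−/−, 886 in dCas9-OGA-D242A and 1345 in dCas9-OGA. It was high in WT and dCas9-OGA and lower, at nearly equal levels, in the other 2 libraries. Sox2 (ENSMUSG00000074637, chr3:34650405-34652461, plus strand), a single-exon gene inside an intron of the noncoding gene Sox2ot, encodes the HMG-box partner of OCT4 and stood at 811 cpm in WT, 540.3 in Dnmt1−/−, 755 in dCas9-OGA-D242A and 752 in dCas9-OGA. Its Dnmt1−/− library was the lowest, with a log2 ratio to WT of −0.59 (95% interval −0.62 to −0.55), and the other 3 libraries were close together. Sall4 stood at 584 cpm in WT, 382 in Dnmt1−/−, 251 in dCas9-OGA-D242A and 271 in dCas9-OGA. Both libraries of cells with a fusion protein were below the other libraries.

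Utf1 was measured at 781 cpm in WT, 576 in Dnmt1−/−, 470.3 in dCas9-OGA-D242A and 476 in dCas9-OGA, and the WT library was again the highest. Dppa2 stood at 119.9 cpm in WT, 81.3 in Dnmt1−/−, 44.8 in dCas9-OGA-D242A and 35.1 in dCas9-OGA, the widest range of any member, with a highest-to-lowest ratio of 3.42. Dppa4, its neighbour on chromosome 16, was at 41.4 cpm in WT, 71.6 in Dnmt1−/−, 66.6 in dCas9-OGA-D242A and 61.0 in dCas9-OGA. The WT library held the highest Dppa2 and the lowest Dppa4, while the other 3 libraries had the same order for both genes. Lin28a stood at 524 cpm in WT, 360.1 in Dnmt1−/−, 372 in dCas9-OGA-D242A and 238 in dCas9-OGA, highest in WT and lowest in dCas9-OGA. Tdh varied least, at 451 cpm in WT, 501 in Dnmt1−/−, 514 in dCas9-OGA-D242A and 395 in dCas9-OGA. Fbxo15, at 41.0 cpm in WT, 118 in Dnmt1−/−, 106 in dCas9-OGA-D242A and 54.7 in dCas9-OGA, was lowest in WT and highest in Dnmt1−/−.

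Per kilobase of exon, Utf1 (636 cpm per kb in WT), Pou5f1 (587) and Sox2 (394) were the 3 most abundant members in each of the 4 libraries, and Tdh (173) was the fourth. Fbxo15 had the lowest level of the 9 in WT, 12.2 cpm per kb, above 66.4% of 13925 genes. Between these separately normalized tables the order differed, since in the WT replicates the same gene had the highest signal per kb of the 8 members measured there, and Tdh the lowest.

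Set side by side, the replicate and single libraries gave the same direction of the Dnmt1−/− to WT difference for 4 of 8 members. The share over all called genes is not given here, so this count does not set the members apart from genes in general. For Pou5f1, Sall4 and Lin28a the single-library log2 ratios were −0.57, −0.61 and −0.54, each lower in Dnmt1−/− as in the replicates and each larger in size. Dppa4 was higher in both, with a single-library ratio of 0.79 (95% interval 0.67 to 0.90). The other 4 had opposite directions. Utf1 and Dppa2, higher without DNMT1 in the replicates, were lower in the single library, with ratios of −0.44 and −0.56. Tdh, lower in the replicates, was slightly higher in the single library, 0.15 (95% interval 0.11 to 0.19). Fbxo15, also lower in the replicates, was 2.87-fold higher, a log2 ratio of 1.51 (95% interval 1.40 to 1.62). Genes of the other lists were divided as well. Of 87 that were called in the replicates and had at least 100 counts summed over single WT and Dnmt1−/−, 46 had the same direction in the single libraries and 41 the opposite one. All 9 such trophoblast genes and 6 of 7 primitive endoderm genes were opposite, and all 4 fibroblast genes and all 4 of the 2-cell-like state had the same direction.

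**Figure D2:**
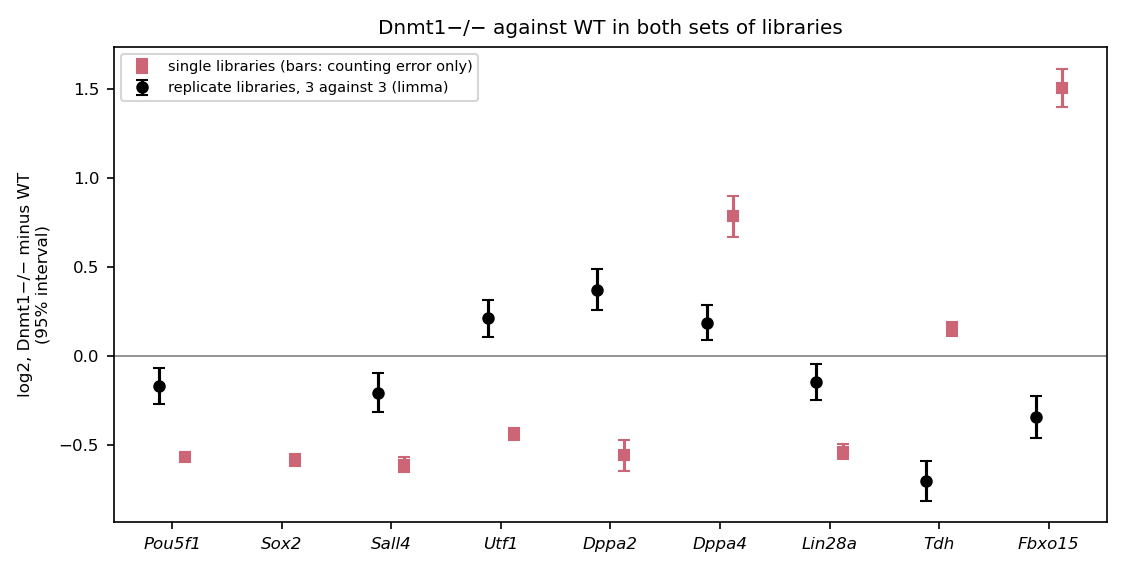
Log2 difference of Dnmt1−/− minus WT (vertical axis) for each core gene; black circles are the replicate libraries with limma 95% intervals, and squares the single libraries with intervals of counting error only. Utf1, Dppa2, Tdh and Fbxo15 lie on opposite sides of 0 in the pair of comparisons, and Sox2 has a single-library value only.

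Removal of O-GlcNAc at IAP elements was compared with the inactive enzyme to ask what the active domain adds, in libraries that also differed in chromosome Y expression. Among the 9 members, 0 were 2-fold higher and 0 were 2-fold lower with the active enzyme, beside 4.88% and 7.22% of 12722 genes. Fbxo15 came nearest to the threshold, lower by a log2 ratio of −0.95 (95% interval −1.04 to −0.85, which includes a 2-fold decrease). Lin28a, −0.64, Tdh, −0.38, and Dppa2, −0.35, were also lower. Dppa4 had a ratio of −0.12 (95% interval −0.23 to −0.024) with TMM scaling and of −0.071 with DESeq2 size factors. Pou5f1 was 1.52-fold higher (log2 ratio 0.60, 95% interval 0.58 to 0.63), and Sall4 had a ratio of 0.11, or 0.16 with DESeq2 size factors. The intervals of Sox2, −0.034 to 0.025, and Utf1, −0.02 to 0.054, included 0 with TMM scaling. With DESeq2 size factors the ratios were 0.049 for Sox2 and 0.071 for Utf1, above those intervals, so differences of this size depended on the scaling.

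Against the single WT library, 3 members were 2-fold lower and 0 were 2-fold higher in dCas9-OGA, beside 9.78% and 14.0% of 12746 genes. They were Dppa2, with a log2 ratio of −1.76 (95% interval −1.87 to −1.65), Lin28a, −1.14 (−1.18 to −1.09), and Sall4, −1.11 (−1.15 to −1.06). In dCas9-OGA-D242A, 2 members were 2-fold lower than in WT and 1 was 2-fold higher, beside 8.28% and 12.5% of 12933 genes. Dppa2, −1.41 (−1.51 to −1.31), and Sall4, −1.22 (−1.26 to −1.17), were the lower genes, and Fbxo15, 1.36 (1.25 to 1.46), the higher. These comparisons and the one of Dnmt1−/− with WT share the WT library, so a value particular to that library enters all of them. For the median member, the log2 ratio was −0.19 for dCas9-OGA (Tdh, −0.13 with DESeq2 size factors) and −0.49 for dCas9-OGA-D242A, and for all genes −0.027 and 0.012. The WT library also had the highest level of 4 marker lists. The 6 mesendoderm genes, most abundant Eomes, summed to 23.2 cpm in WT, 17.8 in Dnmt1−/−, 7.20 in dCas9-OGA-D242A and 6.85 in dCas9-OGA. The 2-cell-like genes, most abundant Usp17lc, summed to 44.3 cpm in WT, 1.47 in Dnmt1−/−, 1.93 in dCas9-OGA-D242A and 0.524 in dCas9-OGA. The 10 trophoblast genes, most abundant Krt8, summed to 644 cpm in WT, 122 in Dnmt1−/−, 249 in dCas9-OGA-D242A and 227 in dCas9-OGA, and the 10 primitive endoderm genes, most abundant Sparc, to 1491 cpm in WT, 739.7 in Dnmt1−/−, 592 in dCas9-OGA-D242A and 888 in dCas9-OGA. The 8 fibroblast genes, most abundant Thy1, summed to 49.0 cpm in WT, 30.7 in Dnmt1−/−, 61.3 in dCas9-OGA-D242A and 40.9 in dCas9-OGA. The formative and primed epiblast gene Cer1 was the only marker of the lists with a count of 0 in all 4 libraries. The part of these markers in the members' ratios was not tested.

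**Figure D3:**
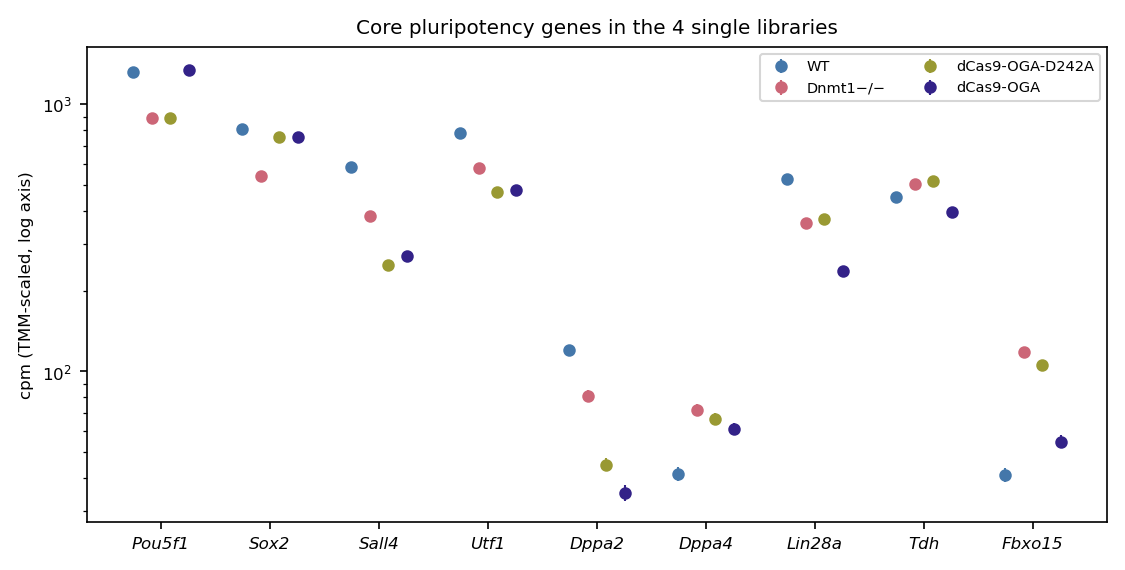
TMM-scaled cpm (vertical log axis) of the 9 core genes in 1 library each of WT, Dnmt1−/−, dCas9-OGA-D242A and dCas9-OGA cells; points are libraries and bars are Wilson 95% intervals, mostly hidden by the points. Dppa2, Sall4 and Utf1 are highest in WT and lowest in the libraries of cells with a fusion protein, while Fbxo15 and Dppa4 are lowest in WT.

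Dppa2, Fbxo15 and Sall4 varied most over the 4 single libraries, and the genes whose centred log2(cpm + 0.5) was nearest to theirs were found among 13936 genes with at least 100 counts summed. The gene nearest to Dppa2 was Gm9788 (Euclidean distance 0.0646), an annotated pseudogene of Dppa2 itself, followed by Mgat4e (0.137) and Gas8 (0.181). The 3 genes nearest to Fbxo15 included Rnf170 (0.175) and Gm9833 (0.180). Sall4 was nearest to Gm37305 (0.0274), Thoc3 (0.0410) and Csnk2b (0.0665). Mgat4e was as low as 0.363 cpm in dCas9-OGA and Gm37305 as low as 0.604 cpm in dCas9-OGA-D242A, near the 0.5 added. Nearness over 4 libraries among so many genes was not tested and does not show that the genes vary together.

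Reads of 4 members can be shared with pseudogenes elsewhere in the genome, most of them processed pseudogenes, which are intronless copies of an mRNA. Aligned to GRCm38, transcripts of Dppa2 matched 13 annotated pseudogenes, those of Dppa4 7, of Pou5f1 4 and of Tdh 1, while the other 5 members had none. Among those of Dppa2, Gm12877, annotated as unprocessed, and Gm12874 lie at the same place. The closest copy of Dppa2, Gm9788 (chr19:41459783-41461499), had 98.8% identity over 73% of the transcript, and the copies of Dppa2 that the tables list, 4 in the replicates and 10 in the single libraries, held 29.4% to 31.5% of the signal of gene and copies in the replicate libraries and 25.2% to 26.5% of the counts in the single libraries. Gm14058 (chr2:122214113-122215373), the closest copy of Dppa4, had 98% identity, and the listed copies of Dppa4, 3 in the replicates and 7 in the single libraries, held 6.76% to 8.56% in the replicates and 23.1% to 24.0% in the single libraries. Gm13929 (chr2:112000105-112001560), the copy of Tdh with 97.2% identity, took 21.4% to 22.4% of the reads of gene and copy in the single libraries but 0.269% to 0.887% in the replicates. Listed copies of Pou5f1, 2 in the replicates and 3 in the single libraries, held at most 0.0843% in any replicate and 0.0136% in any single library. The shares of Tdh and Dppa4 were higher in the single libraries. For Dppa4 the copies listed there alone held at most 1 count in any library. The submitters' processing notes name HISAT2 for the replicates and TopHat2 for the dCas9-OGA libraries, and the part of the aligner was not tested. Levels of Dppa2, Dppa4 and Tdh are therefore uncertain. With the listed copies added to each gene, the replicate log2 fold changes were 0.37 for Dppa2, 0.18 for Dppa4 and −0.70 for Tdh. Genes on the opposite strand overlap exons of Pou5f1, Sall4, Lin28a and Tdh, and whether counting used strand is not given in the sources used here; these neighbours had at most 23 counts in any single library.

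Since DNMT1 acts on CpG dinucleotides, the CpG content of the members' promoters is shown. RefSeq promoter windows (GRCm38.p6), which run from 250 bases before to 50 after a transcript start, were matched for 4 of the 9 members, Sox2, Lin28a, Utf1 and Pou5f1; Sall4, Dppa2, Dppa4, Tdh and Fbxo15 were not matched. The window of Sox2 held 27 CpG dinucleotides and was 66.3% G and C, with more CpG than 84.5% of 32851 windows. Those of Utf1, Pou5f1 and Lin28a held 17, 11 and 10, against a median of 7 over all windows. The octamer ATTTGCAT, searched on both strands, was in 0 of these windows and in 1.74% of all windows. The letters CATTGT, a core of SOX motifs searched on both strands, were found 1 time in the Lin28a window, and in 12.6% of all windows. A second window of Pou5f1, at a start inside the gene, held CATTGT 1 time and is not printed. Sequence outside the windows was not searched, so these matches do not show whether the genes lack such sites. Bases upstream of the annotated gene are printed 5′ to 3′ for Sox2 (chr3:34649745-34649994, plus strand), Utf1 (chr7:139943606-139943788, plus strand), Pou5f1 (chr17:35505782-35506017, plus strand) and Lin28a (chr4:134018842-134019066, minus strand), with each CG in capitals, to show how densely the sites of methylation lie. The stretches of Utf1, Pou5f1 and Lin28a end next to the annotated gene, and that of Sox2, whose RefSeq start lies farther upstream, ends short of it.
Sox2: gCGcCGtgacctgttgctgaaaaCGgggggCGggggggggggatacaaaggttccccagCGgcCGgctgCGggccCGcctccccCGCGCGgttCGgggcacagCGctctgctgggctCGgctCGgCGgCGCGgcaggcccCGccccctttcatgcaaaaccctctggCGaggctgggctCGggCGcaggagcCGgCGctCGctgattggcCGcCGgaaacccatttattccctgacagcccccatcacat
Utf1: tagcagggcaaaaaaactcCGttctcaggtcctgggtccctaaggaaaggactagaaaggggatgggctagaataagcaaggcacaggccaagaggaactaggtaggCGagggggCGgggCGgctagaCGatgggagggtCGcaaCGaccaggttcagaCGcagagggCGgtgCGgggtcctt
Pou5f1: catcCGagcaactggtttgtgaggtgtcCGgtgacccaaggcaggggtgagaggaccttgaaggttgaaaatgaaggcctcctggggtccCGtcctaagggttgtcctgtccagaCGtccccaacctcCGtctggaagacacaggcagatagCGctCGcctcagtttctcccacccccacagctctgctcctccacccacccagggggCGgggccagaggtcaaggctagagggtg
Lin28a: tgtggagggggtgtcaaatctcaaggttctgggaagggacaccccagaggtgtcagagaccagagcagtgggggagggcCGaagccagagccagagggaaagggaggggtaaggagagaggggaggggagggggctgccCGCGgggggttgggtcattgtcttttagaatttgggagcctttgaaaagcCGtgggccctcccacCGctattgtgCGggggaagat
Methylation at these windows was not analysed here.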

How the data were processed

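RNA-seq of 6 replicate and 4 single libraries was used; 5 ChIP and input samples were not analysed here. Reads were mapped to mm10 and counted on Ensembl 87 genes with featureCounts 1.5.0. For the replicates the authors deposited a normalized signal, of which 100% of values were whole multiples of 1 read (tolerance 0.01 read). For the single libraries they deposited raw counts. The labels name an unstranded kit and the study's methods a stranded one.

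Signal was tested as log2(signal + 0.5) with limma 3.58.1 with a mean-variance trend, and p-values were adjusted by Benjamini-Hochberg over 17297 genes that passed filterByExpr of edgeR. The test was checked on simulated data. Alternatives were the quasi-likelihood test of edgeR 4.0.16 and the test of DESeq2 1.42.0, both run on reads recovered from the signal, other pseudocounts, scaling and filters, a replicate block and left-out libraries. Replicates of a group differed by more than sampling noise (chi-square per degree of freedom 3.15 to 12.0). Single libraries were scaled with TMM. Pseudogene copies were annotated pseudogenes (GENCODE M21) to which minimap2 2.31 aligned at least 30% of a member's transcript at 80% identity or more.

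Members and lists were chosen with earlier results of these data known. Genes named were the members, Dnmt1, at most 4 genes per list with the largest absolute log2 fold change past the threshold, and the 3 genes nearest in pattern to each of the 3 members that varied most over the single libraries; 2 genes that this rule names are not reported here. Chromosome Y genes were added after their values were seen. Software was R 4.3.3 and Python 3.11.15 with the packages pandas 2.3.3, NumPy 2.4.6, SciPy 1.17.1 and, for plots, matplotlib 3.10.9.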

Additional observations from a re-analysis of the deposited data

Results flagged for a closer look

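For 4 members, the Dnmt1−/− to WT difference had opposite directions in the replicate libraries, where groups did not overlap, and in the single libraries. Utf1 had a log2 fold change of 0.21 in the replicates and a log2 ratio of −0.44 in the single libraries. For Dppa2 these values were 0.37 and −0.56. For Tdh they were −0.70 and 0.15, and for Fbxo15 −0.34 and 1.51. The difference between the sets was not tested, since each single library has no replicate.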

How the results depend on the processing

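All 104 values of the 8 members' replicate log2 fold changes under alternatives kept their sign, and 102 kept their side of the threshold; the 2 that did not were both of Lin28a. The number of all genes called ranged from 11404 with DESeq2 to 13271 without a filter, and from 11616 to 12128 with 1 library left out, against 12324. With the replicate number as a block it was 12556, and all 8 members were called. Same-numbered libraries had correlations of deviations of 0.17, −0.017 and 0.13. Libraries numbered 1 and 3 correlated best with their own number, and those numbered 2 did not. The numbers were not taken as pairs in the main fit, and whether same-numbered libraries shared a batch was not tested. Of 72 single-library ratios under other scalings, 71 kept their sign and 23 lay outside the interval of counting error, 18 of these with DESeq2 size factors; the members' counts past 2-fold did not change. The exception was Sox2 in dCas9-OGA against dCas9-OGA-D242A, −0.0046 with TMM and 0.049 with DESeq2 size factors, a scaling that changes library sizes only. Another pseudocount or count filter cannot turn the sign of such a ratio, and with those 1 of 72 lay outside its interval. Adding pseudogene copies, chosen after seeing the data, kept every sign. Depth limited Dppa2 and Fbxo15 most, at 870 and 1017 counts in their lowest libraries.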

Other observations

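Between dCas9-OGA and dCas9-OGA-D242A, several lists around the core genes held genes past 2-fold. None of the 9 core genes was past it, with Fbxo15 close to it at a log2 ratio of −0.95. With so few genes, this count does not set the core genes apart from all genes. The comparison is of 1 library each, without a test, in libraries that also differed in chromosome Y expression. Over all 12722 genes compared, 4.88% were 2-fold or more above and 7.22% 2-fold or more below the inactive form with the active enzyme. Of 15 naive pluripotency factors compared, 6 were at least 2-fold higher and 1 lower; the median log2 ratio was 0.86 against 0.03 for all genes. Prdm14 stood at 13.0 cpm in dCas9-OGA-D242A and 30.3 cpm in dCas9-OGA, and Dppa3 at 29.3 cpm in dCas9-OGA-D242A and 1.29 cpm in dCas9-OGA. Of 5 formative and primed epiblast genes with enough counts, 4 were at least 2-fold lower (median −2.01). Dnmt3b, a de novo methyltransferase gene, stood at 358 cpm in dCas9-OGA-D242A and 157 cpm in dCas9-OGA, and Zic2, a zinc finger factor, at 16.9 cpm in dCas9-OGA-D242A and 2.74 cpm in dCas9-OGA. Of 9 primitive endoderm genes, 5 were at least 2-fold higher (median 1.01), and Lama1, a laminin chain, stood at 120.3 cpm in dCas9-OGA-D242A and 244 cpm in dCas9-OGA. Most other lists had genes on both sides or none past 2-fold. Of 16 genes of the POU, SOX and SALL families, 3 were at least 2-fold higher and 4 lower (median −0.069). These counts were 2 and 2 of 22 other ES cell genes, 1 and 1 of 14 genes around LIN28A, 1 and 1 of 5 OCT-SOX targets, 1 and 3 of 4 neuroectoderm genes and 1 and 2 of 7 trophoblast genes. Of 4 fibroblast genes 2 were lower, and none of 8 genes of threonine and glycine breakdown, of 4 SCF partners or of the 1 mesendoderm gene compared was past 2-fold. No gene of the 2-cell-like state had enough counts. Mat2a and Shmt1, both of one-carbon metabolism, stood at 134 cpm in dCas9-OGA-D242A and 121 cpm in dCas9-OGA, and at 309 cpm in dCas9-OGA-D242A and 201 cpm in dCas9-OGA.

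Over the 4 single libraries, summed neuroectoderm genes, most abundant Tubb3, came to 208 cpm in WT, 269 in Dnmt1−/−, 170.3 in dCas9-OGA-D242A and 52.6 in dCas9-OGA. Formative and primed epiblast genes, most abundant Dnmt3b, came to 888 cpm in WT, 941 in Dnmt1−/−, 729 in dCas9-OGA-D242A and 248 in dCas9-OGA.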
